A study of Mus musculus with 5 samples.

Results

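The 9 cholesterol synthesis enzymes Hmgcs1, Mvk, Pmvk, Mvd, Idi1, Fdps, Fdft1, Sqle and Lss were taken by symbol from the 56941 genes of the deposited count table, and all 9 were found and passed the minimum of 10 counts in at least 1 pool. RNA was sequenced from the iridocorneal angle, the ring of tissue between iris and cornea through which aqueous humor drains, to compare DBA/2J mice with DBA/2J-Gpnmb+/SjJ mice, called Gpnmb+ here. DBA/2J is an inbred strain that develops pigmentary glaucoma, with a mutant allele of Gpnmb and the Tyrp1 b allele. Gpnmb+ mice are the matched strain with a functional Gpnmb allele and keep the Tyrp1 b allele, so Tyrp1 b is common to both groups. All mice were untreated and are labelled as 12 months old and of both sexes, with 3 DBA/2J pools (9 mice) and 2 Gpnmb+ pools (6 mice), and each library is stated to pool 3 mice, although the library names of the Gpnmb+ pools carry 2 animal codes each. The iris and ciliary body were removed at dissection, and the study's methods state that some remnants of both stayed attached. For Gpnmb+ the counts went against the label of both sexes. Y-linked Ddx3y was at 0 and 4 counts for Gpnmb+ pools 1 and 2, where Xist, the RNA of the inactive X chromosome, was at 7843 and 9152, so a Y-linked RNA was all but missing from both pools. Across DBA/2J pools 1 to 3 Ddx3y was at 3608, 4168 and 1567 counts and Xist at 596, 0 and 2417, so no Xist was counted in DBA/2J pool 2. Sex and genotype therefore cannot be told apart in the comparisons that follow.

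Cholesterol is built from acetyl-CoA in a long chain of enzyme steps. The mevalonate steps make isoprenoid units, which are joined into farnesyl diphosphate and then squalene, and squalene is closed into the first sterol ring structure, lanosterol. In most cells the genes of this chain are switched on together by the transcription factor SREBP-2 (Srebf2) when membrane sterol is low: Scap carries the factor to the proteases that release it, and the Insig proteins hold it back when sterol is plentiful.

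The genes of the 9 enzymes lie on 7 chromosomes, with Fdps and Pmvk near each other on chromosome 3 and Hmgcs1 and Idi1 far apart on chromosome 13. The 250 bases before the start of each gene's canonical transcript were read from GRCm39 and searched on both strands for 3 sets of letters: TCACNCCAC, a form of the sterol response element that SREBP binds, CCAAT, the box bound by NF-Y, and GGGCGG, the GC box bound by Sp1. No matches of different sets overlapped in these 9 windows. CCAAT was found before 7 of the 9 enzymes (77.8%), against 36.5% of all 21757 protein-coding windows of that length and 35.3% of the 15906 whose genes were tested. The GC box was found before 5 of 9 (55.6%), against 36.3% of all windows and 45.4% of those of genes tested. TCACNCCAC was found before 1 of 9 (11.1%), against 1.12% and 1.13%, and that one was Hmgcs1. The 12 other sterol synthesis enzymes had CCAAT in 66.7%, the GC box in 58.3% and TCACNCCAC in 0. Among 11 fatty acid synthesis genes the shares were 27.3%, 36.4% and 27.3%. These motif shares are therefore not particular to the 9. Pmvk and Mvd held no CCAAT in the window. The windows of Hmgcs1, which holds the sterol response element letters, and of Idi1 and Pmvk, the enzymes with the largest and the smallest fold change, are shown 5′ to 3′ along the gene's strand, and all 3 genes lie on the plus strand. Capitals mark TCACNCCAC and CCAAT on either strand, so that a CCAAT box on the opposite strand reads ATTGG. Other transcripts of these genes have other starts.
Hmgcs1, GRCm39 chr13:120151732-120151981: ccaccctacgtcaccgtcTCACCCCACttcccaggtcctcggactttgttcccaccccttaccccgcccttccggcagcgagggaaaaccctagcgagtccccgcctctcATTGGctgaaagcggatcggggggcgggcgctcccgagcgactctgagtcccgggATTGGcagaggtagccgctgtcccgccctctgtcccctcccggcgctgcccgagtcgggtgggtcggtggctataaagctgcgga
Idi1, GRCm39 chr13:8935669-8935918: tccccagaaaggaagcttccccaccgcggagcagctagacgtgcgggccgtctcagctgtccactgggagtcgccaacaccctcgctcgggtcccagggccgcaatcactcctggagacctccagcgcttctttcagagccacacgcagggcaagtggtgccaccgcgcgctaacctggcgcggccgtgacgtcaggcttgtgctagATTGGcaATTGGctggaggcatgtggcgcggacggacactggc
Pmvk, GRCm39 chr3:89366175-89366424: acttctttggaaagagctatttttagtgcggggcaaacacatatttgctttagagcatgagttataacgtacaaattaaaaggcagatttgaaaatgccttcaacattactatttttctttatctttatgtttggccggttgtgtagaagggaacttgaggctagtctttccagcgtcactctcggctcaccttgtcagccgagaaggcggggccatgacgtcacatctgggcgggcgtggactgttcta

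In DBA/2J, all 9 enzymes had a higher fitted level than in Gpnmb+, by between 7.71% for Pmvk and 25.0% for Idi1, and every fitted difference was below 1.5-fold. The log2 fold change is positive where DBA/2J was higher, and its median over the 9 was 0.23, against -0.02 over all 19713 genes tested. A log2 fold change above 0 was seen for 47.4% of all genes tested, and for 50% of the 9697 genes whose mean level lay within the range of the enzymes. None of the 9 was called by edgeR, a call being an adjusted p of at most 0.05 together with 1.5-fold or more, a rule that 0.796% of all genes passed in either direction and 0.502% passed as higher and 0.294% as lower in DBA/2J. At an unadjusted p of at most 0.05, Mvk alone passed, where 8.31% of all genes passed as higher in DBA/2J, 7.6% as lower and 15.9% in either direction. With the 1.5-fold minimum none of the 9 did, where 4.2% of all genes passed as higher, 4.48% as lower and 8.67% in either direction. DESeq2 also called 0 of the 9 (4.7% of all genes, or 6.96% without a fold minimum), with a smallest adjusted p of 0.167. From limma-voom, which called 190 of all 19713 genes, 0 of the 9 were called, with a smallest adjusted p of 0.267. In 8 of the 9 every DBA/2J pool lay above both Gpnmb+ pools, an arrangement shown by 17.3% of all genes tested, and by 17.2% in the opposite direction. Because these genes are known to be regulated together, the 9 are not independent observations of the genotype. With the one-sided p doubled, the smallest two-sided p that exact permutation of 3 and 2 pools allows is 0.2. Therefore p-values are given from models fitted across all genes. In pooled tissue, more RNA per cell and more cells that express a gene cannot be told apart.

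**Figure D1:**
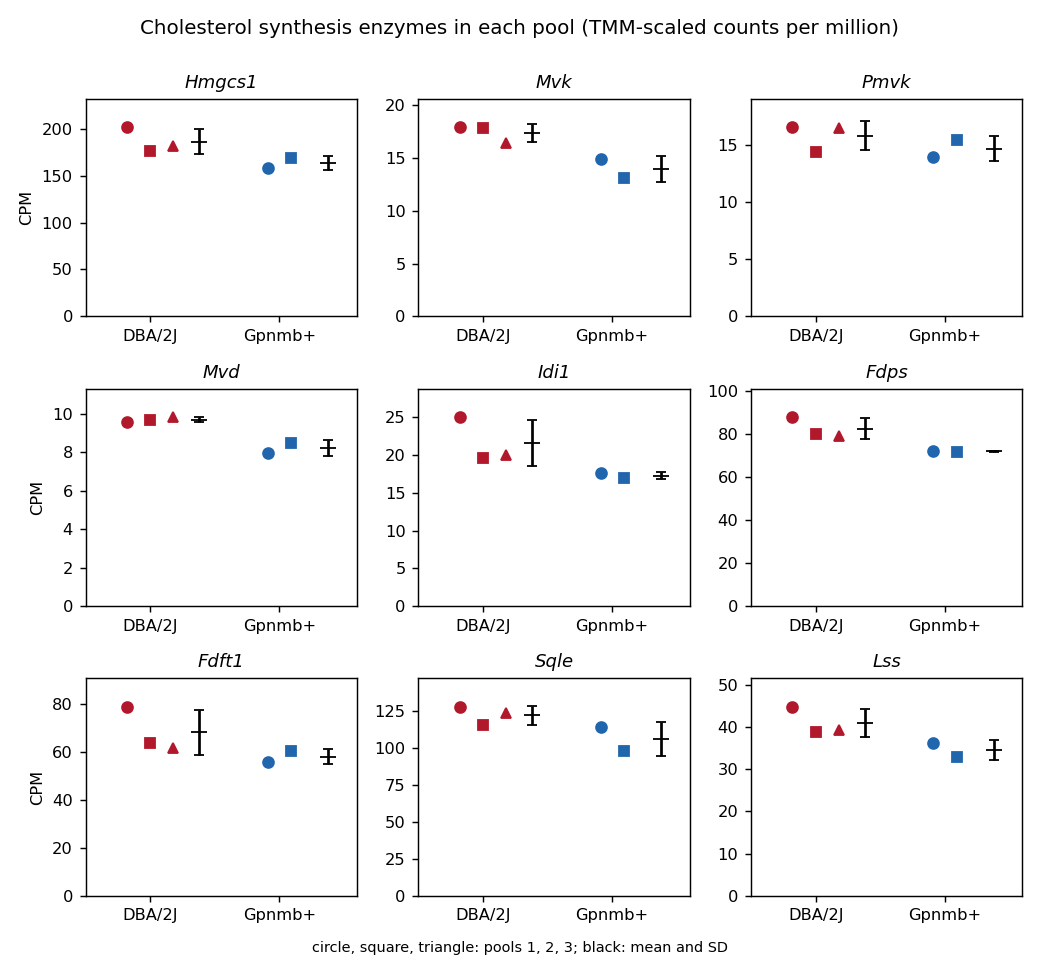
Level of each of the 9 enzymes in CPM (vertical axes, from 0) in the 3 DBA/2J pools (red) and the 2 Gpnmb+ pools (blue), with the mean and SD of each genotype in black. Every enzyme has a higher DBA/2J mean, and the pools overlap for Pmvk alone.

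The first of the 9 in the pathway is Hmgcs1, the cytosolic HMG-CoA synthase. Hmgcs1 (chromosome 13, 120151915 to 120170470, plus strand, GRCm39) had 201, 176 and 181 CPM (counts scaled to the library total and corrected by TMM) for DBA/2J pools 1 to 3, against 159 and 169 for Gpnmb+ pools 1 and 2. The genotypes did not overlap, and the nearest pools were DBA/2J pool 2 and Gpnmb+ pool 2. On the log2 scale the difference was 0.19 (standard error 0.09, edgeR adjusted p = 0.403), with a 95% interval of 0.97-fold to 1.34-fold. It was the most abundant of the 9 per length, with 33.7 CPM per kilobase of exon (SD 3.04, n = 5 pools).

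Mvk, Pmvk and Mvd carry mevalonate through 2 phosphorylations and a decarboxylation to isopentenyl diphosphate. Mvk, the mevalonate kinase (chromosome 5, 114582267 to 114601803), had 17.9, 17.8 and 16.4 CPM in DBA/2J, against 14.8 and 13.0 in Gpnmb+. All DBA/2J pools lay above both Gpnmb+ pools. The log2 fold change of Mvk was 0.32 (standard error 0.12, edgeR unadjusted p = 0.0341 and adjusted p = 0.272), and its 95% interval, 1.02-fold to 1.52-fold, was the only one of the 9 that did not include equal levels. Mmab, a cobalamin enzyme gene that starts 94 bases from Mvk on the other strand, differed by 0.06 on the log2 scale (standard error 0.12). The difference between these 2 neighbouring genes was not tested.

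Pmvk, the phosphomevalonate kinase (chromosome 3, 89361758 to 89376323), had 16.5, 14.4 and 16.5 CPM in DBA/2J, against 13.9 and 15.4 in Gpnmb+. This was the one enzyme whose pools overlapped, since DBA/2J pool 2 lay below Gpnmb+ pool 2. The fitted log2 difference was 0.11 (standard error 0.12, edgeR adjusted p = 0.728), the smallest of the 9, with an interval of 0.87-fold to 1.33-fold. It was 0.04 without Gpnmb+ pool 1, 0.19 without Gpnmb+ pool 2 and 0.17 without DBA/2J pool 2. Mvd, the decarboxylase (chromosome 8, 123160336 to 123170324), had 9.60, 9.67 and 9.84 CPM in DBA/2J, against 7.94 and 8.50 in Gpnmb+. The DBA/2J pools of Mvd lay closer together than those of any other of the 9, with a coefficient of variation of 1.26%. The log2 fold change of Mvd was 0.24 (standard error 0.12, edgeR adjusted p = 0.402).

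Idi1 and Fdps make and join the isoprenoid units. Idi1, the isopentenyl diphosphate isomerase (chromosome 13, 8935537 to 8942487), had 25.0, 19.7 and 20.1 CPM in DBA/2J, against 17.6 and 17.0 in Gpnmb+. DBA/2J pool 1 stood above the rest, and the other DBA/2J pools still lay above both Gpnmb+ pools. Its log2 fold change, 0.32 (standard error 0.14, edgeR adjusted p = 0.341), was the largest of the 9, and without DBA/2J pool 1 it was 0.20. Fdps, the farnesyl diphosphate synthase (chromosome 3, 89000888 to 89019213), had 88.1, 80.4 and 79.0 CPM in DBA/2J, against 72.3 and 71.9 in Gpnmb+. The Gpnmb+ pools were almost equal and all DBA/2J pools lay above them. The log2 fold change of Fdps was 0.19 (standard error 0.08, edgeR adjusted p = 0.343).

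Fdft1 and Sqle commit the chain to sterols, by making squalene and oxidising it, and Lss closes the ring. Fdft1, the squalene synthase (chromosome 14, 63382189 to 63417027), had 78.8, 63.6 and 61.7 CPM in DBA/2J, against 55.7 and 60.2 in Gpnmb+. DBA/2J pool 1 again stood apart, and DBA/2J pool 3 lay just above Gpnmb+ pool 2. The fitted log2 difference was 0.23 (standard error 0.13, edgeR adjusted p = 0.441) and was 0.11 without DBA/2J pool 1. Of the exon bases of Fdft1, 24.8% are shared with Ctsb on the opposite strand, a cathepsin gene with 626698 counts over the 5 pools and a log2 fold change of 0.19 (standard error 0.11). Sqle shares 5.29% with Washc5 on the opposite strand (24910 counts, log2 fold change 0.16, standard error 0.12). Also on the opposite strand, Mvd shares 20.5% with Gm51557, a gene absent from the count table. Hmgcs1 shares 10.6% with Gm48342 (33 counts) and Idi1 9.1% with Gm48574 (2 counts). The strand setting of the counting is not given in the sources used here. The share of opposite-strand reads, including Ctsb reads in the Fdft1 count, was not tested.

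Sqle, the squalene epoxidase (chromosome 15, 59186869 to 59203043), had 128, 116 and 124 CPM in DBA/2J, against 115 and 98.2 in Gpnmb+. DBA/2J pool 2 and Gpnmb+ pool 1 were nearly level, so Sqle kept the genotypes apart by the smallest margin. On the log2 scale the difference was 0.20 (standard error 0.10, edgeR adjusted p = 0.392) and was 0.32 when Gpnmb+ pool 1 was left out and 0.10 when pool 2 was. Lss, the lanosterol synthase (chromosome 10, 76367298 to 76392976), had 44.9, 38.8 and 39.3 CPM in DBA/2J, against 36.3 and 32.9 in Gpnmb+. All DBA/2J pools of Lss lay above both Gpnmb+ pools, with a log2 difference of 0.24 (standard error 0.10, edgeR adjusted p = 0.333).

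The 95% intervals bound what these pools allow. They ended below 1.5-fold for 7 of the 9 enzymes and reached 1.52-fold for Mvk and 1.58-fold for Idi1. They included equal levels for 8 of the 9. Positions are from GRCm39, with Mvd, Fdps and Fdft1 on the minus strand and the others on the plus strand. Each enzyme held between 403 and 8958 counts in each pool. Per kilobase of exon, the mean levels over the 5 pools ran from Hmgcs1 through Fdps (16.0 CPM), Fdft1 (13.4), Sqle (13.1), Idi1 (5.60), Pmvk (4.00), Lss (3.38) and Mvd (3.34) to Mvk (1.44). Fdft1 and Sqle, and Lss and Mvd, did not differ beyond their SD over the pools (1.84 and 1.29, and 0.386 and 0.308). With the longest transcript as length, Sqle (25.2) moved above Fdft1 (15.6) and Lss (5.50) above Pmvk (4.84).

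**Figure D2:**
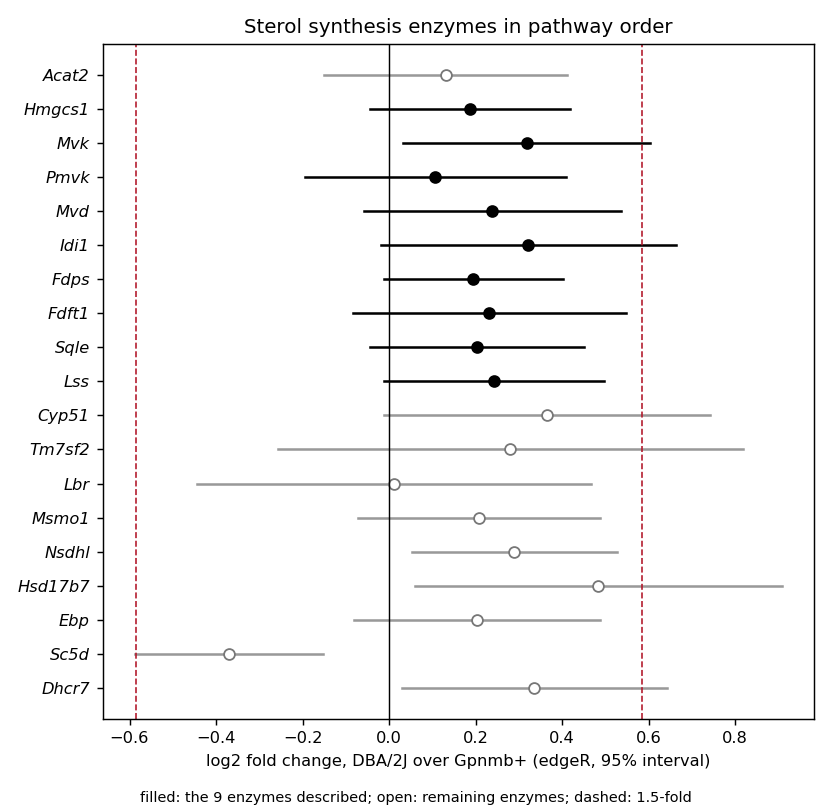
Log2 fold change of DBA/2J over Gpnmb+ with its 95% interval (horizontal axis, edgeR) for 19 sterol synthesis enzymes in pathway order (vertical axis), filled for the 9 described here and open for 10 of the remaining enzymes. Of the 19, 18 lie above 0, and Sc5d lies below it.

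The remaining 12 enzymes of the chain gave a median log2 fold change of 0.23. Of the 12, 11 were above 0 and 7 had all DBA/2J pools above both Gpnmb+ pools (17.3% of all genes). None was called by edgeR, and 3 (Nsdhl, Hsd17b7 and Dhcr7) passed an unadjusted p of at most 0.05 as higher and 1, Sc5d, as lower (8.31% and 7.6% of all genes). Hsd17b7, a sterol ketone reductase, had the largest log2 fold change, 0.48 (standard error 0.17, edgeR adjusted p = 0.265), which was 0.32 without DBA/2J pool 1.

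Sc5d, a late sterol desaturase named because it was the one enzyme of the 12 below 0, had 86.2, 94.8 and 82.9 CPM in DBA/2J, against 112 and 116 in Gpnmb+. Its pools did not overlap, with a log2 difference of -0.37 (standard error 0.09, edgeR adjusted p = 0.133). DESeq2 gave Sc5d an adjusted p of 0.013, short of the fold minimum.

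The 9 enzymes differed among the DBA/2J pools as well as between genotypes. Of the 9, 8 were highest in DBA/2J pool 1 and Mvd in DBA/2J pool 3. For Mvk (17.88 against 17.84 CPM in pool 2) and Pmvk (16.53 against 16.50 in pool 3) that lead was slight. Of all genes tested, 21.1% were highest in DBA/2J pool 1, and 24.4% of those within the enzymes' range of mean level. Around the midpoint of the genotype means, the mean log2 CPM of the 9 was 0.22 in DBA/2J pool 1, 0.05 in pool 2 and 0.07 in pool 3, and -0.10 and -0.12 in Gpnmb+ pools 1 and 2. DBA/2J pool 1 thus stood above the other DBA/2J pools, which still lay above both Gpnmb+ pools. Without DBA/2J pool 1 the median log2 fold change of the 9 was 0.17, all 9 were above 0 and 8 had separated pools, where 22% of all genes had DBA/2J pools 2 and 3 above both Gpnmb+ pools.

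**Figure D3:**
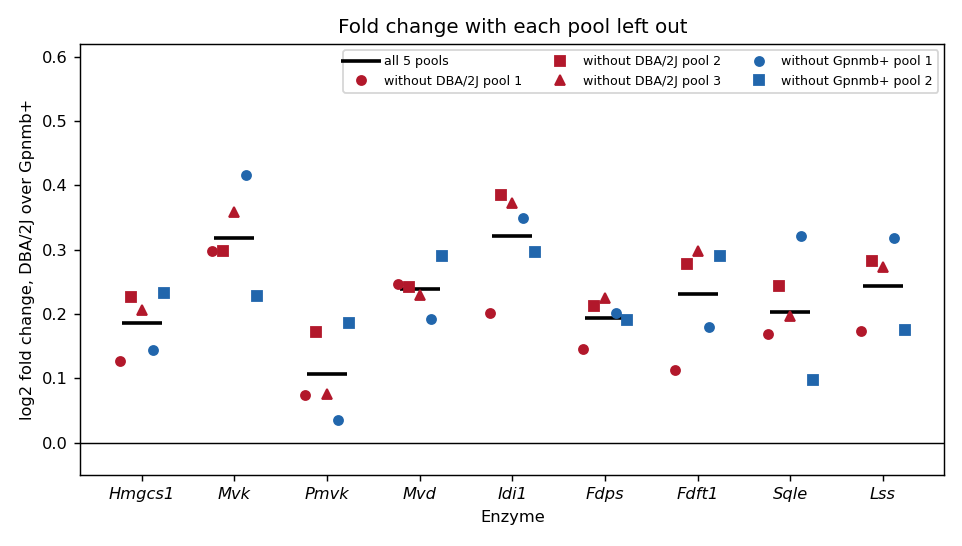
Log2 fold change of DBA/2J over Gpnmb+ (vertical axis, edgeR) of each of the 9 enzymes (horizontal axis) with all 5 pools (black bar) and with each pool left out in turn (symbols). All points lie above 0, and leaving out DBA/2J pool 1 gives the lowest value for Idi1, Fdps, Fdft1, Hmgcs1 and Lss.

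Fdps followed the mean of the other enzymes most closely, with a root mean square difference of 0.03 on the centred log2 CPM scale over the 5 pools. Pmvk (0.11) and Mvk (0.10) followed it least. Among 6241 other genes with a mean log2 CPM of at least 5, the 5 nearest to the mean of the 9 included Kpna3, Tram1, Nbas and Akap11, with differences of 0.0147 to 0.0198. Insig1, a target of SREBP-2 that also restrains it, stood at rank 9 (0.0235), Fasn at rank 36 and Srebf2 at rank 40. These ranks describe 5 pools and carry no test.

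The regulators of the pathway were described in the same way. Of the 7 genes of sterol sensing and SREBP processing, 6 had a log2 fold change above 0, the median was 0.13 and none was called by edgeR, while 3 passed an unadjusted p of at most 0.05 as higher in DBA/2J (8.31% of all genes). Srebf2, which encodes SREBP-2, had 189, 175 and 182 CPM in DBA/2J, against 150.4 and 150.1 in Gpnmb+. The genotypes were well separated, with a log2 difference of 0.28 (standard error 0.08, edgeR adjusted p = 0.183). Srebf1, which encodes the fatty acid form of the factor, had 82.3, 85.2 and 90.9 CPM in DBA/2J, against 65.0 and 62.03 in Gpnmb+, a difference of 0.44 on the log2 scale (standard error 0.08, edgeR adjusted p = 0.0867). Insig1 had 122, 109.7 and 109.9 CPM in DBA/2J, against 95.8 and 99.4 in Gpnmb+, a difference of 0.22 on the log2 scale (standard error 0.09, edgeR adjusted p = 0.293). DESeq2 gave Srebf1 and Srebf2 adjusted p-values of 0.000455 and 0.0219, with neither at 1.5-fold.

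**Figure D4:**
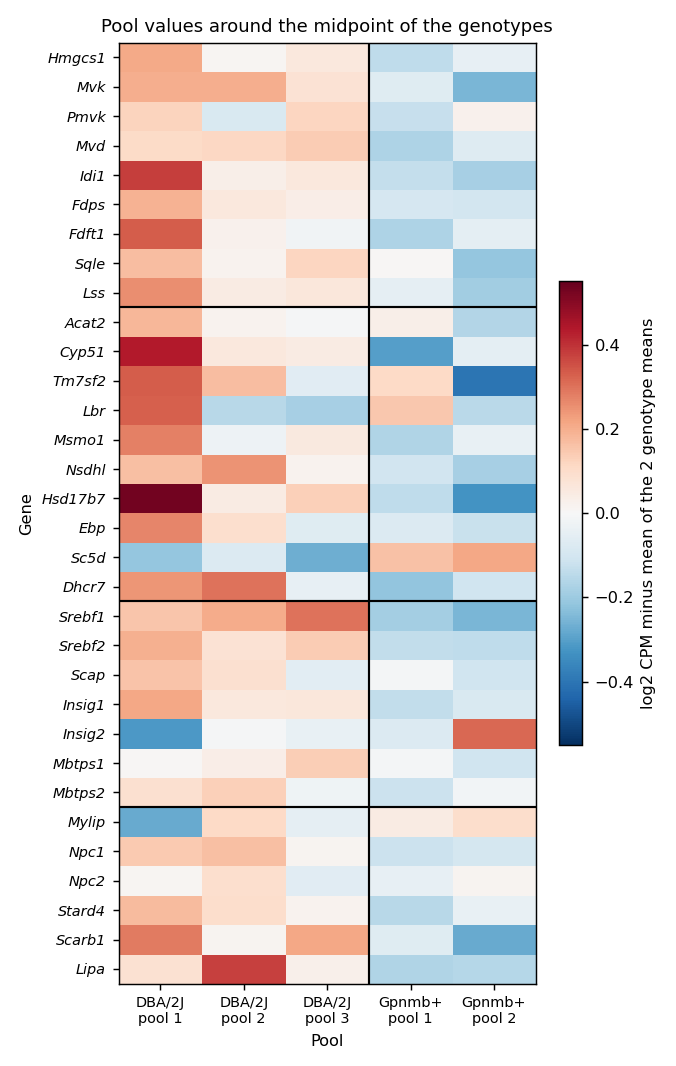
Log2 CPM of each gene (rows) in each pool (columns) minus the mean of the 2 genotype means, for the 9 enzymes, 10 of the remaining enzymes, 7 genes of sterol sensing and 6 of uptake, separated by lines. DBA/2J pool 1 holds the darkest red, at Hsd17b7, and the Gpnmb+ pools are blue for most of the 9 enzymes.

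Of the 8 genes of cholesterol uptake and transfer, 7 were above 0 with a median log2 fold change of 0.21, and edgeR called none, with 3 at an unadjusted p of at most 0.05 as higher in DBA/2J (8.31% of all genes). Of the 8, 5 had all DBA/2J pools above both Gpnmb+ pools (17.3% of all genes).

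Larger differences stood among the enzymes that make or degrade oxysterols. Of 11 genes of efflux, storage and oxysterol handling, 9 were above 0 with a median log2 fold change of 0.30, and none was called by edgeR, while 3 passed an unadjusted p of at most 0.05 with the 1.5-fold minimum (8.67% of all genes in either direction). DESeq2 called the same 3, Ch25h, Cyp7b1 and Cyp27a1 (4.7% of all genes). Ch25h, the cholesterol 25-hydroxylase, had 25.6, 26.9 and 17.0 CPM in DBA/2J, against 8.95 and 3.93 in Gpnmb+. The genotypes did not overlap although each varied widely, with a log2 difference of 1.85 (standard error 0.39, edgeR adjusted p = 0.104). Without Gpnmb+ pool 1 the value for Ch25h was 2.56 and passed the threshold (edgeR adjusted p = 0.0475), with the single Gpnmb+ pool assumed to vary like the DBA/2J pools. Without Gpnmb+ pool 2 it was 1.37 (edgeR adjusted p = 0.225), and without each DBA/2J pool in turn the edgeR adjusted p was 0.182 to 0.25.

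Cyp7b1, which degrades 25-hydroxycholesterol and related oxysterols, had 16.0, 12.6 and 12.6 CPM in DBA/2J, against 9.28 and 5.77 in Gpnmb+, a difference of 0.87 on the log2 scale (standard error 0.24, edgeR adjusted p = 0.169). Leaving out Gpnmb+ pool 1 gave 1.25 and leaving out pool 2 gave 0.56. Cyp27a1, the mitochondrial sterol 27-hydroxylase, lay the other way, with 13.2, 16.1 and 14.0 CPM in DBA/2J against 24.2 and 19.6 in Gpnmb+. The fitted log2 difference was -0.60 (standard error 0.15, edgeR adjusted p = 0.134). Ch25h, Cyp7b1 and Cyp27a1, named because they passed a call rule, differed in direction, while the 9 synthesis enzymes were all above 0. Whether these genes and the 9 enzymes differ was not tested.

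The isoprenoid branch, which uses farnesyl diphosphate for ubiquinone, dolichol and protein prenylation, showed no common direction. Of its 10 genes, 5 were above 0 (47.4% of all genes) and the median log2 fold change was -0.01. None passed an unadjusted p of at most 0.05 in edgeR (15.9% of all genes in either direction) or was called by DESeq2 (4.7%). The gene of this list with the largest value was Dhdds, a dolichol synthesis enzyme, at 0.11 (standard error 0.08, edgeR adjusted p = 0.576). Leaving out Gpnmb+ pool 1 gave 0.17 for Dhdds and leaving out pool 2 gave 0.05. Whether the branch and the 9 sterol enzymes differ was not tested.

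**Figure D5:**
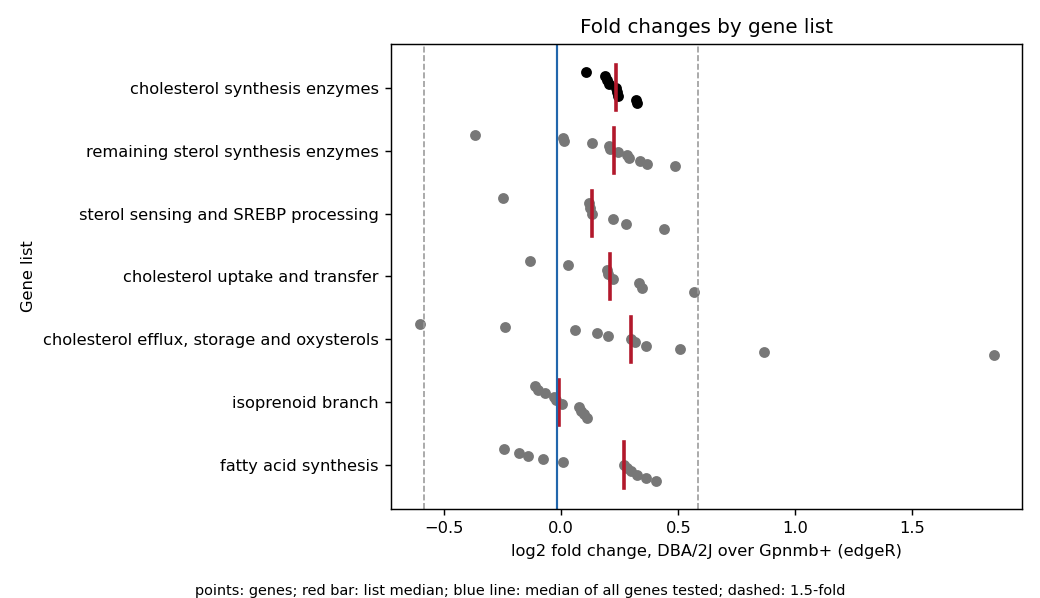
Log2 fold change of DBA/2J over Gpnmb+ (horizontal axis, edgeR) of each gene in 7 lists (vertical axis), with list medians in red and the median of all genes tested, -0.02, in blue. The 9 enzymes lie between 0.11 and 0.32, and the isoprenoid branch is centred near 0.

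The libraries held 43900661 to 49837758 counts on genes. Gpnmb had 43.6 to 52.0 CPM in DBA/2J and 2260 to 2555 in Gpnmb+, which checks the labels. DBA/2J pool 1, where most enzymes were highest, held the middle value of the 3 DBA/2J pools for both Ddx3y and Xist. All 5 markers of nonpigmented ciliary epithelium were higher in DBA/2J, summing to 859 to 1027 CPM against 172 to 317, and edgeR called 2 as higher (0.502% of all genes) and DESeq2 called 5 (4.7% of all genes). All 6 markers of the trabecular meshwork and angle were detected in every pool and were below 0, summing to 948 to 1153 CPM in DBA/2J against 1485 to 1571, and edgeR called 4 as lower (0.294% of all genes) and DESeq2 called 5. Skeletal muscle markers were above 0 for 8 of 8 (168 to 439 CPM against 106 to 166) and macrophage markers for 5 of 6 (675 to 922 against 640 to 761). Of these muscle and macrophage markers edgeR called 0, with 2 muscle markers and 1 macrophage marker at an unadjusted p of at most 0.05 as higher (8.31% of all genes), and DESeq2 called 1, a muscle marker. Of the other lists, pigment cell markers were above 0 for 2 of 6 (3381 to 4468 CPM against 3627 to 4238), myelinating Schwann cell for 1 of 6 tested (290.0 to 334 against 346 to 386), corneal epithelium for 2 of 6 (4302 to 7142 against 6924 to 8966) and photoreceptor for 0 of 6 (560.3 to 826 against 338 to 1838). Sebaceous gland markers were above 0 for 6 of 7 (2.45 to 13.7 CPM against 4.80 to 5.36) and lens markers for 5 of 5 tested (5.78 to 7.89 against 3.23 to 5.52). Adipocyte markers were above 0 for 4 of 4 tested (33.1 to 41.0 CPM against 30.2 to 40.4), a sum made almost wholly by Plin4 (29.8 to 40.6 CPM), while Adipoq was at 0.102 to 0.349 CPM and Lep had 0 counts in 3 of the 5 pools. Within DBA/2J, pool 1 held the highest sums for macrophage (922 CPM) and corneal epithelium (7142) markers. It held the lowest for trabecular meshwork and angle (948), Schwann cell (290.0), pigment cell (3381), ciliary epithelium (859) and muscle (168) markers. The part of sex and of these cell types in the enzymes' differences was not tested.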

How the data were processed

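The deposited table holds raw counts per gene for 5 pools of iridocorneal tissue. To make these counts the authors used fastp for trimming and STAR for alignment on GRCm39, keeping reads that align to a single place, which lowers the counts of genes with near-identical copies. The strand setting and tool versions are not given in the sources used here. All library columns were used, and no 2 libraries were identical.

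Names and positions came from GENCODE M39 (GRCm39), which held 56323 of 56941 identifiers. Testing covered genes that reached 10 counts in 1 pool or more and used edgeR 4.0.16 in R 4.3.3, with TMM scaling, the quasi-likelihood test and no covariate, and Benjamini-Hochberg adjustment over all genes tested. Calls needed an adjusted p of at most 0.05 and 1.5-fold. CPM are TMM-scaled, and log2 CPM used a prior count of 2. Intervals are at 95%. Tables used Python 3.11.15, numpy 2.4.6, pandas 2.3.3, scipy 1.17.1 and matplotlib 3.10.9. The fits were tested on simulated data.

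Members and gene lists were chosen with earlier results of these data known. The lists were 6 of sterol and lipid genes and 11 of cell type markers. Named genes were the members, genes past a call rule, the largest fold change of each list, and a few fixed genes including Srebf2 and Insig1. Some genes named by this rule are not reported here, though they stay in the counts and medians of their lists. Alternatives were DESeq2 1.42.0, limma-voom (limma 3.58.1), DESeq2 size factors, other filters, no fold minimum, the pool number as a block and each pool left out. Labels do not say how mice were assigned to pools, and p-values measure the spread between pools, which already average several mice.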

Additional observations from a re-analysis of the deposited data

How the results depend on the processing

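All 9 enzymes kept a log2 fold change above 0 under all 12 alternatives that refit the model, and none was called under any, with a smallest adjusted p of 0.167 (DESeq2, Mvk). The median log2 fold change of the 9 ran from 0.17 to 0.24 with a pool left out and from 0.19, with library totals and no TMM factor (an alternative chosen after seeing the data), to 0.25, without a count filter. That scaling moved the median of all genes from -0.02 to -0.06 and left 7 of the 9 enzymes with separated pools (14.1% of all genes), and leaving out a pool left 8 to 9 (21.8% to 31.3% of all genes). Without a fold minimum, 1 enzyme passed an unadjusted p of at most 0.05. The number of all genes called, 157, was 927 with DESeq2 and 360 without a count filter, and ran from 1 to 217 with a pool left out, being 6, 1 and 17 without DBA/2J pools 1, 2 and 3 and 2 without Gpnmb+ pool 2. Among the 59 other pathway genes DESeq2 called 3 (4.7% of all genes), and leaving out a pool gave 0 to 1. With the pool number as a replicate block, 220 genes were called, none of them one of the 9, and their median was 0.23. Only 2 number pairs exist and nothing in the labels ties them, so the pools share a number and are not treated as paired. With 1 Gpnmb+ pool left, that pool was assumed to vary like the DBA/2J pools. The causes of these shifts were not tested. The enzymes had at least 403 counts in every pool.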

Other observations

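Fatty acid synthesis genes, many of them SREBP-1 targets, did not share one direction. Of 11 genes, 7 had a log2 fold change above 0 and 4 below, the median was 0.27, and edgeR called none, while 6 passed an unadjusted p of at most 0.05 as higher in DBA/2J (8.31% of all genes did). DESeq2 called 0 at 1.5-fold (4.7% of all genes). Fads2, the delta-6 desaturase of polyunsaturated fatty acid synthesis, had the largest value. Its DBA/2J pools had 238, 233 and 249 CPM, against 192 and 169.9 for Gpnmb+, a difference of 0.41 on the log2 scale (standard error 0.09, edgeR adjusted p = 0.117). The paralogous stearoyl-CoA desaturases lay on opposite sides, with Scd2 at 0.36 (standard error 0.10, edgeR adjusted p = 0.157) and Scd1 at -0.14 (standard error 0.17, edgeR adjusted p = 0.736). These 2 genes were named after their values were seen, their sequences are similar, and the difference between them was not tested.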
